A study of Mus musculus with 14 samples.

Results

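The genes described here encode 8 cell surface proteins that are used to find, sort or stage skin stem cells: *Cd34*, *Cd200*, *Cd44*, *Cd24a*, *Ly6a*, *Ly6d*, *Ly6e* and *Epcam*. They were picked by symbol, are 8 of the 54332 genes in the expression table, and all 8 were among the 13110 genes tested, which averaged 1 TPM or more over the 10 libraries. TPM give a transcript's abundance for its length, relative to a fixed total per library. The libraries came from epidermal stem cells (EpdSCs), the basal stem cells of the epidermis between hair follicles, in which a MYC-tagged *Sox9* transgene was switched on with doxycycline (DOX), and each timepoint had 2 biological replicates. D0 was day 0, W1, W2, W6 and W12 were weeks on DOX, and how many mice went into a replicate is not given in the sources used here.

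Every group, D0 included, was of CD1 strain, carried both K14rtTA and TRE-myc-Sox9, and was labelled male. The *Krt14* promoter drives the DOX-dependent activator, so the transgene is limited to cells that use that promoter. Mice were at postnatal day 21 at D0, 28 at W1, 35 at W2 and 63 at W6, so age rose with time on DOX, and no RNA of age-matched mice without SOX9 was analysed here. The W12 cells came from newborn skin that had been grafted onto immunocompromised Nude female mice and had healed before DOX, so grafting and 12 weeks of SOX9 cannot be told apart. All cells were sorted back-skin cells that lacked CD31, CD45, CD117 and CD140a, had much CD49f and Ly6A, and lacked CD34. The proteins of *Cd34* and *Ly6a* were thus part of the gate at all 5 timepoints, and their transcripts were measured in cells already selected for them.

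CD34, a sialomucin, marks the quiescent stem cells of the mouse hair follicle bulge and also the endothelium of blood vessels. CD200, an immune-inhibitory ligand, is found on bulge cells and on basal cell carcinoma (BCC) cells. EPCAM is a cell adhesion molecule of epithelia that is strong in BCC, and CD44 is the main receptor for the matrix polymer hyaluronan. CD24 is a small glycoprotein held in the membrane by a lipid (GPI) anchor, as are the LY6 proteins. Of these, Ly6A, also called SCA-1, is high on EpdSCs and low on hair follicle cells, which is why it serves in the gate, and *Ly6a* and *Ly6e* are both known as interferon-inducible genes. The antibody name Ly6A/E refers to products of *Ly6a* alleles and not to the gene *Ly6e*.

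The MYC-SOX9 transcript stood at 606 to 3414 TPM in the 8 libraries after DOX and at 89.6 and 45.6 TPM at D0. *Krt14* was at 19997 to 37666 TPM in all 10 libraries, *Ptprc* (CD45) at no more than 0.327 TPM and *Pdgfra* (CD140a) at no more than 0.188 TPM. In the W12 libraries *Pecam1*, which encodes CD31, a protein the gate sorted against, was at 26.1 and 59.8 TPM. It was at no more than 1.14 TPM before, and the summed TPM of 6 endothelial genes was 88.9 and 208 at W12 against 0.977 to 4.47 before. *Krt8* and *Krt18*, keratins of Merkel cells and of simple epithelia, were at 46.3 and 145 TPM and at 32.9 and 105 TPM at W12 and at no more than 5.84 and 3.80 TPM before, and the Merkel cell gene *Krt20* was at 0.258 and 0.544 TPM at W12 and at no more than 0.0109 TPM before. *Isl1*, of the same list, was at 0.713 and 1.44 TPM at W12 and at no more than 0.780 TPM before, and *Atoh1* was listed at 0 in both W12 libraries. Of 7 genes of basal keratinocytes 5 fell at W12 against D0, where 25.1% of all tested genes fell, among them *Krt15*, from 11241 and 11928 TPM to 322 and 242 TPM. At W6 6 of the 7 fell, where 14.1% of all tested genes did. Of 8 genes of suprabasal keratinocytes 4 rose and 1 fell at W6 and 3 rose and 2 fell at W12, where 18.3% and 17.9% of all tested genes rose, among them *Krtdap*, from 3314 and 647 TPM at D0 to 10419 and 10171 TPM at W6. Of 8 genes of the hair follicle bulge, *Cd34* among them, 7 were tested. Against D0, 3 rose and none fell at W2, and 2 rose and 1 fell at W12. From W6 to W12 *Cd34* alone rose and 2 fell. Of all tested genes 9.06% rose and 6.64% fell at W2, 17.9% rose and 25.1% fell at W12, and 6.66% rose and 13.5% fell from W6 to W12. The part of other cells or cell states in the members' W6 and W12 values was not tested. Labelled male like the rest, D0 replicate 2 had 4.61 TPM of *Xist*, a transcript of female cells, and 0.0278 TPM of *Ddx3y* from the Y chromosome. The W12 libraries had both, *Xist* at 5.51 and 3.50 TPM and *Ddx3y* at 10.97 and 12.9 TPM. The summed TPM of 18 genes known to respond to tissue dissociation was 36609 and 59733 at D0 and 7250 to 16174 afterwards. The part of this difference in the members' changes against D0 was not tested. The counts of the members and of most lists against D0 are given also without D0 replicate 2, and most of those up to W6 also without the W12 libraries, settings that were chosen for the lists once the values were known.

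Against D0, 2 of the 8 genes changed at W1 (*Cd44* up, *Cd24a* down), 5 at W2 and 6 each at W6 and W12, at an adjusted P under 0.05 (limma, Benjamini-Hochberg over all genes tested). Of all tested genes 9.89% passed for W1 (5.79% up and 4.10% down), 15.7% for W2 (9.06% up and 6.64% down), 32.4% for W6 (18.3% up and 14.1% down) and 43.0% for W12 (17.9% up and 25.1% down). Among the members, 1 rose and 1 fell by W1, 3 rose and 2 fell by W2, 4 rose and 2 fell by W6, and 6 rose and none fell by W12. Over all 5 timepoints 7 of the 8 genes varied in limma's moderated F test, every one but *Ly6e*, where 57.5% of all tested genes did. The median log2 change of the 8 genes at W12 was 0.83, beside −0.08 for all tested genes. *Cd34* passed the filter on low values only through its W6 and W12 libraries, and among the other 7 genes 5 were called at W6 and 5 at W12, with a median at W12 of 0.80. Without D0 replicate 2 the counts were 2, 3, 6 and 4, in which *Epcam* took the place of *Cd24a* at W1 and *Ly6d* its place at W6, and without the W12 libraries they were 1, 4 and 5 at W1, W2 and W6, a setting that was chosen once the values were known. With other libraries left out the counts fell further, to 0 at W1 (without either W1 library), 0 at W2 (without W2 replicate 2), 3 at W6 (without D0 replicate 1 or W6 replicate 1) and 3 at W12 (without either W12 library). The genes did not move together, as the plot of TPM by timepoint shows. *Cd34* rose from W6, *Cd200* and *Epcam* passed against D0 from W2 and *Cd44* from W1, *Cd24a* and *Ly6a* fell and then rose at W12, *Ly6d* was highest at W12, and *Ly6e* did not pass any test.

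**Figure D1:**
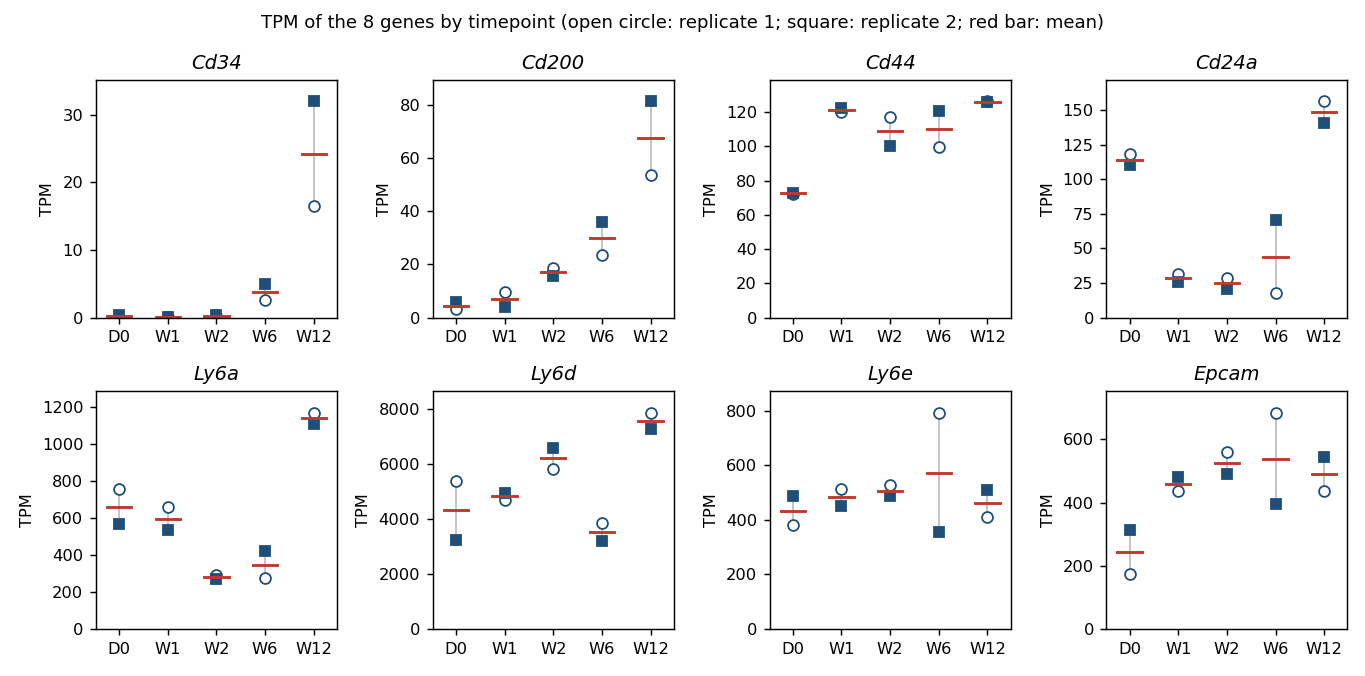
TPM (vertical axis, from 0, scaled per gene) of the 8 genes at the 5 timepoints (horizontal axis), with replicate 1 as an open circle, replicate 2 as a filled square and their mean as a red bar. *Cd34* and *Cd200* climb to their highest values at W12, *Cd24a* drops from over 110 TPM at D0 to under 32 TPM at W1 and is back above 140 TPM at W12, and *Ly6e* and *Epcam* have their widest difference in TPM between replicates at W6.

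At D0 the genes covered a wide range of levels, and TPM are set per transcript length, so that levels can be compared between genes. By mean TPM at D0, *Ly6d* ranked 19 among all genes at 4318 ± 1518 TPM (SD, n = 2), *Ly6a* 214 at 661 ± 135 TPM, *Ly6e* 340 at 434 ± 75.7 TPM and *Epcam* 611 at 243 ± 98.4 TPM. *Cd24a* ranked 1311 at 114 ± 5.64 TPM, *Cd44* 2075 at 72.7 ± 0.280 TPM, *Cd200* 9844 at 4.42 ± 1.80 TPM and *Cd34* 15492 at 0.222 ± 0.228 TPM. The LY6 genes were thus the most abundant of the 8, and the marker that the gate selects against was the least abundant.

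*Cd34* (ENSMUSG00000016494.9; GRCm38 chr1:194938819-194961279, plus strand) was close to absent until W2. It was listed at 0.0614 and 0.383 TPM at D0, 0.141 and 0.0475 TPM at W1, and 0.198 and 0.356 TPM at W2, then at 2.66 and 5.04 TPM at W6 and 16.5 and 32.0 TPM at W12. Both W6 libraries lay above all 6 earlier ones and both W12 libraries above both of W6. The log2 change against D0 was 1.96 ± 0.35 (SE) at W6 (adjusted P = 0.00442) and 4.31 ± 0.35 at W12 (adjusted P = 5.77e-05), and the step from W2 to W6 was 1.88 ± 0.35 (adjusted P = 0.0131). These changes are on the log2(TPM + 1) scale, which understates those of low genes. The D0 values are near 0 and lie far apart, so no fold in TPM is given. The step from W2 to W6 lost its call without W2 replicate 1 (adjusted P = 0.0988), W2 replicate 2 (0.0702) or W6 replicate 2 (0.0520), while the changes at W6 and W12 against D0 passed with any one library left out. The step from W6 to W12 was 2.36 ± 0.35 (adjusted P = 0.00351). As the gene was among those tested only because of its W6 and W12 levels, the fit with no filter, on every gene above 0 TPM, is given too, in which the adjusted P was 0.0262 at W6, 0.00112 at W12, 0.0551 for the step from W2 to W6 and 0.0164 for that from W6 to W12.

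Endothelial transcripts moved with *Cd34* at W12. The 6 endothelial genes were summed to 2.34 times as much in W12 replicate 2 as in replicate 1, and *Cd34* was 1.93 times as high there. *Cd34* was at 0.634 and 0.535 times the level of *Pecam1* in the W12 libraries and at 5.14 and 4.42 times it in the W6 libraries, so that at W6 it exceeded *Pecam1* and at W12 it did not. In the 6 earlier libraries, where both genes were near 0, it was at 0.166 (W1 replicate 2) to 6.41 times (D0 replicate 2) the level of *Pecam1*. *Pecam1* itself was at 0.517 and 1.14 TPM at W6, above its level in all 6 earlier libraries. Dermal fibroblasts can carry CD34 as well. The sum of 6 fibroblast genes was 1.68 TPM in W6 replicate 1 and 52.2 TPM in W6 replicate 2, where *Cd34* was also the higher, and 13.7 and 28.1 TPM at W12. *Dcn* made up 51.2 TPM of it in W6 replicate 2, and the other fibroblast genes were at no more than 1.08 TPM in any library (*Col1a2* at D0). The parts of endothelial and fibroblast RNA in the *Cd34* values at W6 and W12 were not tested. In bulk RNA, fewer or more cells that hold a transcript and less or more of it per cell cannot be told apart. The other gate transcripts are given for the same libraries. *Kit* (CD117) was at no more than 0.243 TPM before W12 and at 0.509 and 1.87 TPM at W12. *Itga6*, which encodes CD49f, was at 196 and 290 TPM at D0, fell at W6 by 1.15 on the log2 scale (adjusted P = 0.00335) to 102 and 111 TPM, and was at 166 TPM in both W12 libraries.

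**Figure D2:**
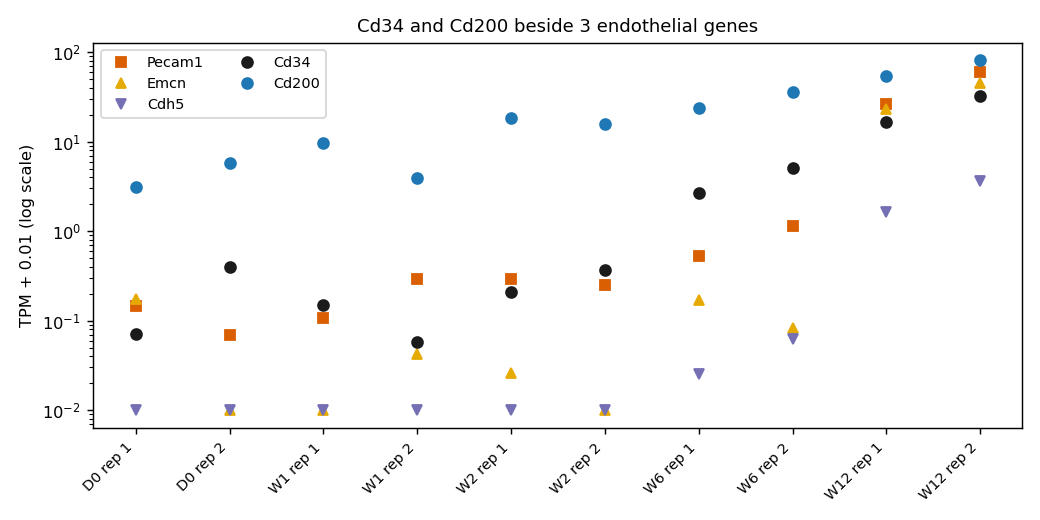
TPM + 0.01 on a log axis for *Cd34* and *Cd200* (circles) and for the endothelial genes *Pecam1*, *Emcn* and *Cdh5* (squares and triangles) in each of the 10 libraries. *Cd34* and *Cd200* are above their earlier values at W6, where *Pecam1* is at 0.517 and 1.14 TPM, and all 5 genes are highest in the W12 libraries.

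*Cd200* (ENSMUSG00000022661.14, chr16:45382135-45409053, minus strand) had a higher mean at each later timepoint. Its levels were 3.14 and 5.69 TPM at D0, 9.66 and 3.95 TPM at W1, 18.6 and 15.6 TPM at W2, 23.6 and 36.1 TPM at W6, and 53.7 and 81.3 TPM at W12. From W2 on, each timepoint's libraries lay above those of every earlier one, while the W1 and D0 libraries overlapped. The log2 change against D0 was 1.77 ± 0.40 at W2 (adjusted P = 0.0200), 2.52 ± 0.40 at W6 (adjusted P = 0.00249) and 3.67 ± 0.40 at W12 (adjusted P = 2.45e-04), and the W12 mean was 15.3 times the D0 mean. No single step between neighbouring timepoints passed, and the last, from W6 to W12, was 1.15 ± 0.40 with an adjusted P of 0.0762. *Cd200* at W12 was 1.52 times as high in replicate 2 as in replicate 1, and endothelial cells can also carry CD200. The endothelial part of its level was not tested. The endothelial sum was at most 4.47 TPM before W12, and in a fit without the W12 libraries the adjusted P was 0.0360 at W2 and 0.00642 at W6. The call at W2 was lost without D0 replicate 1 (adjusted P = 0.0740), W2 replicate 1 (0.115) or W2 replicate 2 (0.0881), and those at W6 and W12 were kept with any one library left out. With no filter on low values the W2 call was lost as well (0.104).

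The promoters of *Cd34* and *Cd200* are printed because they are the members that rose furthest and in part over the same weeks. Each run is 300 bases of RefSeq sequence (GRCm38.p6), from 250 bases before the start of transcription to 50 after it, on the gene's strand, and capitals mark ACAAT, the core of the SOX motif, read here on the opposite strand as ATTGT.
*Cd34*, chr1:194938571-194938870, plus strand: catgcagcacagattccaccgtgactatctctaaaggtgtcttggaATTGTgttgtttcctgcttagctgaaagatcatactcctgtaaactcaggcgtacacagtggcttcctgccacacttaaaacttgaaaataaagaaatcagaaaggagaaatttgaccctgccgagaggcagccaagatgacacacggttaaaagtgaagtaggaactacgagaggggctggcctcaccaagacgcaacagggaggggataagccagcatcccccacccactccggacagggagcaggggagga
*Cd200*, chr16:45409004-45409303, minus strand: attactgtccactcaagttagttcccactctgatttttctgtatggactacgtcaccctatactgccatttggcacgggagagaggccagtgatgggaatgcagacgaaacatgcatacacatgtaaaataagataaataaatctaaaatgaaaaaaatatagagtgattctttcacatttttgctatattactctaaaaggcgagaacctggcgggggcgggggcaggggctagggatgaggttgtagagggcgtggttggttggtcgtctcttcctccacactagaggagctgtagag
The *Cd34* window held 1 such match, 204 bases before the start, and the *Cd200* window held none. The search covered ACAAT and ACAAAG, which are both core words of SOX motifs, the E-box word CACCTG, the GATA factor word GATAAG and the AP-1 word TGACTCA on both strands in the 4 members whose promoters were in the table (*Cd34*, *Cd200*, *Cd44* and *Epcam*). ACAAT occurs in 31% of 32851 promoters of this length, ACAAAG in 18.7%, CACCTG in 20.2%, GATAAG in 7.44% and TGACTCA in 5.2%. GATAAG was found once in *Cd34* and once in *Cd44*, CACCTG was found 2 times in *Epcam*, and the *Cd200* window held none of the 5. Such matches describe the letters of the window and not binding.

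*Epcam* (ENSMUSG00000045394.9, chr17:87635979-87651129, plus strand) stood at 174 and 313 TPM at D0, 435 and 480 TPM at W1, 561 and 490 TPM at W2, 684 and 394 TPM at W6, and 438 and 545 TPM at W12. All 8 libraries after DOX lay above both D0 libraries. The log2 change was 0.97 ± 0.32 at W1 (adjusted P = 0.0936), 1.17 at W2 (adjusted P = 0.0388), 1.15 at W6 (adjusted P = 0.0238) and 1.07 at W12 (adjusted P = 0.0246), each with the same SE. The W2 mean was 1.07 times the W12 mean, and which timepoint was highest depended on the scale, W6 by mean TPM, W2 by mean log2 value and W12 after median-ratio scaling. The D0 libraries lay 1.80 times apart. Without D0 replicate 1 the adjusted P was 0.130 at W2, 0.0938 at W6 and 0.119 at W12. The W2 call was also lost without either W2 library (0.184 and 0.136), the W6 call without W6 replicate 1 (0.118), and the W12 call without W12 replicate 1 (0.0653) or replicate 2 (0.136). All 3 calls were also lost after quantile normalization (adjusted P = 0.0607, 0.0560 and 0.0698), in the fit of the 4 libraries compared (0.108, 0.132 and 0.0610) and with no filter on low values (0.167, 0.0975 and 0.0986). The W2 call was lost as well after median-ratio scaling (0.0576), without the variance trend (0.0506), with the replicate number as a block (0.0597) and without the W12 libraries (0.0648).

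The 10 genes listed as partners of EPCAM, among them claudins, tetraspanins and serine protease inhibitors that are known to bind it or act with it, were mixed. At W12 against D0, 3 of the 10 rose and 3 fell, at W6 none rose and 1 fell, at W2 1 rose, and at W1 3 rose. Of all tested genes 17.9% rose and 25.1% fell at W12, 18.3% rose and 14.1% fell at W6, 9.06% rose at W2 and 5.79% rose at W1. Without D0 replicate 2, 2 rose at W1, none fell at W6, and 2 rose and 2 fell at W12. *Cldn7*, a claudin that binds EPCAM, was at 4.27 and 14.3 TPM at W12 and passed the filter on low values only through that timepoint. Without it, 2 of 9 rose and 3 fell at W12. The tetraspanin *Tspan8* rose by 1.68 at W12 (adjusted P = 0.0170). *Spint2*, an inhibitor of the serine proteases that cleave EPCAM, fell by 0.89 on the log2 scale (adjusted P = 0.00154).

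*Cd44* (ENSMUSG00000005087.17, chr2:102811141-102901665, minus strand) made its change within the first week. Its levels were 72.5 and 72.9 TPM at D0, 120 and 123 TPM at W1, 117 and 101 TPM at W2, 99.4 and 121 TPM at W6, and 126 TPM in both W12 libraries. The D0 libraries lay below all 8 later ones, which spanned only 99.4 to 126 TPM. The log2 change against D0 was 0.73 ± 0.14 at W1 (adjusted P = 0.0138), 0.57 at W2 (adjusted P = 0.0281), 0.59 at W6 (adjusted P = 0.0144) and 0.79 at W12 (adjusted P = 0.00282), each with the same SE. In TPM the W12 mean was 1.74 times the D0 mean, and timepoints after D0 that stood next to each other in level did not pass. The call at W1 was lost without W1 replicate 1 (adjusted P = 0.0785) or replicate 2 (0.112), that at W2 without D0 replicate 2 (0.0649), W2 replicate 1 (0.206) or W2 replicate 2 (0.0878), and that at W6 without W6 replicate 2 (0.0603). The call at W12 was kept with any one library left out. In the fit of the 4 libraries compared the calls at W1, W2 and W6 were lost (adjusted P = 0.0669, 0.0839 and 0.138), and that at W2 also with no filter on low values (0.0696) and under the replicate block (0.0512). The 9 annotated transcripts of *Cd44* were summed to the gene, so its splice variants could not be followed.

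Of 20 genes for hyaluronan synthesis and turnover and for known CD44 ligands, linkers and proteases, 19 were found and 17 tested. At W1, W2 and W6 against D0, 3 rose and 3 fell each time, and at W12 6 rose and 2 fell. Of all tested genes 5.79% rose and 4.10% fell at W1, 9.06% and 6.64% at W2, 18.3% and 14.1% at W6 and 17.9% and 25.1% at W12. Without D0 replicate 2, 3 rose and 1 fell at W1, 2 rose and 1 fell at W2, 2 rose and 2 fell at W6 and 5 rose and 2 fell at W12, and without the W12 libraries 2 rose and 2 fell at W1. *Lyve1*, the paralogue that binds hyaluronan on lymphatic vessels, rose by 2.54 already at W1 (adjusted P = 4.43e-04) and by 3.29 at W12 (adjusted P = 2.64e-05), and reached 11.5 and 9.82 TPM from 0.308 and 0.0796 TPM at D0. *Has2*, a hyaluronan synthase, was at 3.95 and 7.36 TPM at W12 and *Spp1*, which encodes the ligand osteopontin, at 4.47 and 5.39 TPM, and both passed the filter on low values only through that timepoint. With such genes left out, 4 of 14 rose and 2 fell at W12. *Cd74*, which forms a receptor with CD44, fell by 2.53 on the log2 scale at W6 (adjusted P = 7.61e-04) and rose by 2.45 at W12 (adjusted P = 5.53e-04). *Cd74* is also a gene of antigen-presenting cells, as is *H2-Aa*, which was at 45.1 and 37.5 TPM at W12 and at 1.48 to 13.1 TPM before. The sum over 8 other leukocyte genes was 3.39 and 4.10 TPM at W12, within the 2.95 to 6.03 TPM seen before, with *Ptprc* at or below 0.327 TPM, *Cd3e* at 0.0317 and 0.0370 TPM at W12 and *Coro1a* at 1.78 and 2.10 TPM there. Of the 4 leukocyte genes tested, 3 rose at W12 against D0 (*Cd74*, *H2-Aa* and *Coro1a*, the last by 0.77 with an adjusted P of 0.0192). The part of leukocyte RNA in the *Cd74* values was not tested.

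**Figure D3:**
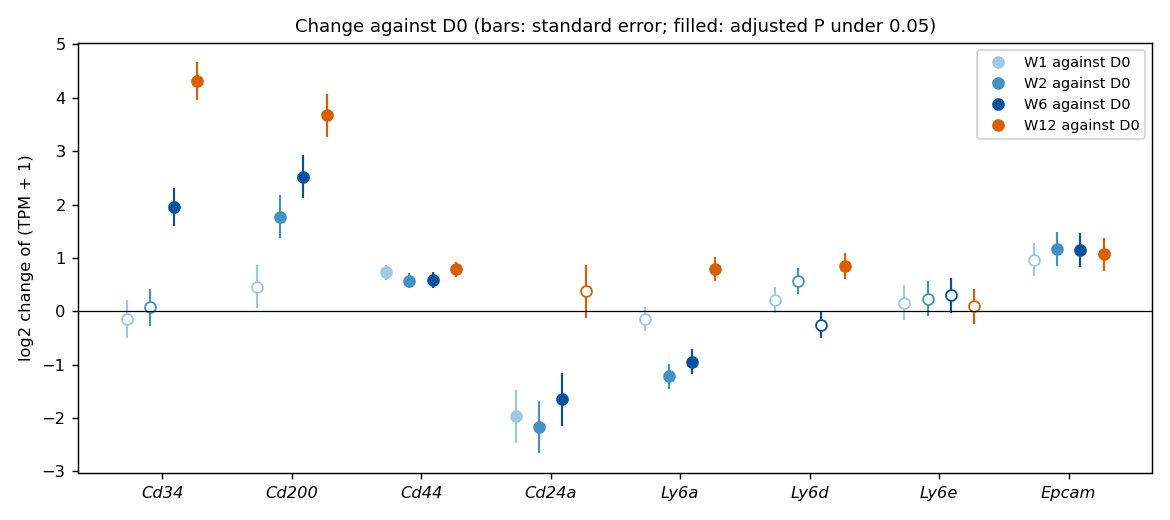
Log2 change of (TPM + 1) from D0 (vertical axis) for each of the 8 genes at W1, W2, W6 and W12, with bars for the standard error of the limma fit over 10 libraries. Filled points had an adjusted P under 0.05. All 4 points of *Cd44* are filled, those of *Cd24a* and *Ly6a* lie below 0 up to W6 and above it at W12, and no point of *Ly6e* is filled.

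*Cd24a* (ENSMUSG00000047139.9, chr10:43578284-43584265, plus strand) fell early and came back. It was at 118 and 110 TPM at D0, at 31.4 and 25.6 TPM at W1 and at 28.8 and 20.97 TPM at W2. At W6 it was at 17.9 and 70.4 TPM, and at W12 at 156 and 141 TPM. The W6 libraries lay 3.93 times apart, the widest replicate gap of any member but *Cd34*, and all 6 libraries of W1 to W6 were below both of D0. The log2 change against D0 was −1.97 ± 0.49 at W1 (adjusted P = 0.0397), −2.17 at W2 (adjusted P = 0.0208) and −1.65 at W6 (adjusted P = 0.0336), and at W12 it was 0.38 (adjusted P = 0.563), each with the same SE. The step from W6 to W12 was 2.02 ± 0.49 (adjusted P = 0.0232), in a comparison in which 20.2% of all tested genes passed (6.66% up and 13.5% down) and the median of all tested genes was −0.16. Without any 1 of the 4 libraries compared, the call at W1 was lost (adjusted P from 0.0950 to 0.224), and so was that at W2 (0.0583 to 0.134). The call at W6 was lost without D0 replicate 1 (0.0877), D0 replicate 2 (0.115) or W6 replicate 1 (0.0531, with a change of −0.69), and in the fit without the W12 libraries those at W1 and W6 were lost too (0.0777 and 0.0591). The step to W12 was lost without W12 replicate 1 (0.136) or replicate 2 (0.0901). With no filter on low values all 4 calls were lost (0.0873 to 0.187), in the fit of the 4 libraries compared those at W6 (0.151) and for the step to W12 (0.0992), and under the replicate block that at W1 (0.0593). Of the 31-base words in its transcripts, 4.98% also occur in other genes, most of them in *Gm6212*, so some reads could have been assigned to either.

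*Ly6a* (ENSMUSG00000075602.10, chr15:74994877-74998031, minus strand) also had its lowest mean at W2 and its highest at W12, but unlike *Cd24a* it was not called at W1. It was at 756 and 565 TPM at D0, 660 and 532 TPM at W1, 293 and 268 TPM at W2, 275 and 421 TPM at W6, and 1168 and 1109 TPM at W12. The 4 libraries of W2 and W6 lay below the 4 of D0 and W1, and both W12 libraries lay above the other 8. The log2 change against D0 was −0.14 ± 0.23 at W1 (adjusted P = 0.751), −1.22 at W2 (adjusted P = 0.00905), −0.94 at W6 (adjusted P = 0.0146) and 0.80 at W12 (adjusted P = 0.0211), and the step from W6 to W12 was 1.74 (adjusted P = 0.00184), each with the same SE. *Ly6a* transcript thus varied 4.06 times between the highest and the lowest timepoint mean in cells that were sorted for high Ly6A protein throughout. The call at W2 was lost without W2 replicate 2 (adjusted P = 0.0754) and that at W6 without D0 replicate 1 (0.0519) or W6 replicate 1 (0.0673, with a change of −0.63). That at W12 was lost without D0 replicate 2 (0.116), W12 replicate 1 (0.0998) or W12 replicate 2 (0.0759), while the step from W6 to W12 was kept with any one library left out. With no filter on low values the adjusted P was 0.0541 at W2, 0.0613 at W6 and 0.0766 at W12, and in the fit of the 4 libraries compared it was 0.111 at W6 and 0.0545 at W12. Endothelial cells are known to carry Ly6A as well. *Ly6a* was 0.949 times as high in W12 replicate 2 as in replicate 1 and the endothelial sum 2.34 times as high, and the part of endothelial RNA in the *Ly6a* value was not tested.

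*Ly6a* has close relatives beside it on chromosome 15, and reads from shared stretches cannot be placed. Of the 31-base words in its transcripts 31.9% also occur in 9 other genes, 21.9% in *Ly6c1* alone. The first 120 coding bases of the GENCODE M21 transcripts Ly6a-201 (GRCm38 chr15:74996519-74997604, minus strand, introns left out) and Ly6c1-201 (chr15:75047420-75048511, minus strand) are printed to show how alike they are, with the 8 bases that differ in capitals.
*Ly6a*: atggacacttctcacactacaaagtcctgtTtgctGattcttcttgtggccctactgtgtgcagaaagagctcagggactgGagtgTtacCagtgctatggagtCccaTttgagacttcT
*Ly6c1*: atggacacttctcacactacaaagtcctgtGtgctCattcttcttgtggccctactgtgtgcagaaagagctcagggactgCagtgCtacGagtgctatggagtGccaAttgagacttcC
Bases 37 to 81 form an identical run of 45 bases. This stretch is more alike than the rest, and with the whole coding sequences aligned end to end, 329 of 393 aligned bases were identical (83.7%), with 9 bases in gaps. *Ly6c1* itself was at 172 and 129 TPM at D0, 29.6 and 36.1 TPM at W2, then 212 and 239 TPM at W12, and its log2 change was −2.16 at W2 (adjusted P = 0.0179) and 0.59 at W12 (adjusted P = 0.341), so it too was lowest in the middle of the course. When *Ly6a* was summed with *Ly6c1*, *Ly6i*, *Ly6c2*, *Ly6g* and *Ly6f*, the sharers whose symbols begin with Ly6, the log2 change was −1.36 at W2 (adjusted P = 0.00752), −1.10 at W6 (adjusted P = 0.0104) and 0.74 at W12 (adjusted P = 0.0373), so the sum kept the direction and the calls of *Ly6a* at these timepoints. The sharers with other symbols, each with 4.37% of its words or fewer, were left out. This sum was chosen once the values were known.

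*Ly6d* (ENSMUSG00000034634.7, chr15:74762056-74763620, minus strand) was the most abundant member in every library. It was at 5391 and 3245 TPM at D0, 4700 and 4943 TPM at W1, 5819 and 6575 TPM at W2, 3860 and 3186 TPM at W6, and 7857 and 7247 TPM at W12. Both W12 libraries lay above the other 8. The log2 change was 0.85 ± 0.24 at W12 against D0 (adjusted P = 0.0215) and 1.11 ± 0.24 at W12 against W6 (adjusted P = 0.0163), and the drop from W2 to W6, −0.82 ± 0.24, had an adjusted P of 0.0524. The call against D0 was lost without D0 replicate 2 (0.0664), W12 replicate 1 (0.111) or W12 replicate 2 (0.0768), and that against W6 without W6 replicate 2 (0.0656), W12 replicate 1 (0.112) or W12 replicate 2 (0.0679). Both were lost with no filter on low values (0.0795 and 0.0553), and that against D0 in the fit of the 4 libraries compared (0.133). Without D0 replicate 1 the change at W2 against D0 passed as well, at 0.93 (adjusted P = 0.009996). None of its 31-base words occurs in another gene in the annotation used.

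*Ly6e* (ENSMUSG00000022587.14, chr15:74955051-74959905, plus strand) had the smallest ratio of highest to lowest timepoint mean of the 8 genes, 1.32. Its levels were 380 and 487 TPM at D0, 512 and 452 TPM at W1, 528 and 488 TPM at W2, 793 and 354 TPM at W6, and 412 and 510 TPM at W12. The W6 libraries were the highest and the lowest of all 10, and the ranges of the other timepoints overlapped, apart from those of D0 and W2. Its log2 change against D0 lay between 0.09 and 0.30 with an SE of 0.33 at every timepoint, and none passed (adjusted P from 0.506 to 0.839). Without W6 replicate 2 the change at W6 was 0.88 (adjusted P = 0.0238), and without W6 replicate 1 it was −0.28 (adjusted P = 0.337), so a change at W6 rested on 1 library.

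**Figure D4:**
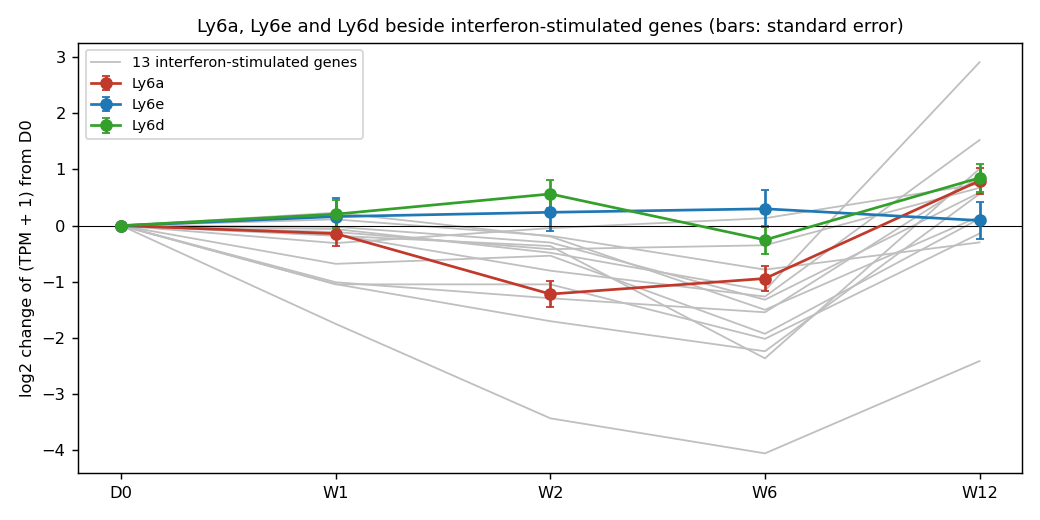
Log2 change of (TPM + 1) from D0 (vertical axis) at each timepoint for *Ly6a*, *Ly6e* and *Ly6d* (coloured lines, bars for the standard error, D0 set to 0 as the reference) and for 13 interferon-stimulated genes (grey lines). *Ly6a* and most of the grey lines are below 0 at W6 and rise from W6 to W12, and *Ly6e* lies between 0.09 and 0.30 throughout.

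The interferon-stimulated genes were counted because *Ly6a* and *Ly6e* are known to answer to interferon. Of 18 such genes, 13 were tested. Against D0, 2 fell at W1, 4 fell at W2 and 11 fell at W6, and none rose at these timepoints. At W12, 6 were above D0 and 1 below it, and 11 of the 13 rose from W6 to W12. Among the 12 genes that averaged 1 TPM or more without the W12 libraries, 5 were above D0 and 1 below it at W12, and 10 rose from W6 to W12. Without D0 replicate 2, 1 fell at W1, 1 at W2 and 6 at W6, and 3 were above D0 and 1 below it at W12, and without the W12 libraries 1 fell at W1, 2 at W2 and 10 at W6. Of all tested genes, 4.10% fell at W1, 6.64% at W2 and 14.1% at W6 against D0, 17.9% rose and 25.1% fell at W12 against D0, and 6.66% rose from W6 to W12. *Xaf1* was at 10.99 and 10.9 TPM at D0, 1.14 and 1.52 TPM at W6 and 25.8 and 20.7 TPM at W12, and *Rtp4*, which averaged 0.936 TPM without the W12 libraries and passed the filter through them, had a log2 change of 2.91 at W12 against D0. *Oas1a* was also above D0 at W12, by 1.52 (adjusted P = 0.00669), while *Usp18*, which restrains interferon signalling, was lower there by a log2 change of −2.41 (adjusted P = 3.6e-04). *Ly6a* was likewise below D0 at W6 and rose from W6 to W12, and *Ly6e* did not pass at either. Whether interferon has a part in the *Ly6a* values was not tested.

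Beyond the members, genes of the wider LY6/uPAR family, small proteins of a shared fold, went both ways, with more called up than down in the fit of all 10 libraries. Of the 32 other genes listed, 17 were tested, and against D0 2 rose and 1 fell at W1, 5 rose and 1 fell at W2, 7 rose and 3 fell at W6, and 9 rose and 1 fell at W12. Of all tested genes 5.79% rose and 4.10% fell at W1, 9.06% and 6.64% at W2, 18.3% and 14.1% at W6 and 17.9% and 25.1% at W12. Without D0 replicate 2, 2 rose and none fell at W1, 4 and 1 at W2, 3 and 1 at W6 and 5 and 1 at W12, and without the W12 libraries 1 and 1 at W1, 3 and 1 at W2 and 7 and 2 at W6. Of the 17 genes, 3 (*Ly6m*, *Plaur* and *Psca*) passed the filter on low values only through W12, and among the other 14, 6 rose and 1 fell at W12. *Pinlyp* rose from 3.11 and 1.89 TPM at D0 to 157 and 56.8 TPM at W6 and 116 and 137 TPM at W12, a log2 change of 5.201 (adjusted P = 8.4e-05). *Ly6m* was at 21.7 and 30.1 TPM at W12 and at no more than 2.30 TPM before. *Plaur*, which encodes the receptor for the protease urokinase, was at or below 1.67 TPM until W6 and at 23.1 and 36.8 TPM at W12. *Lypd5* had passed by W2, at 2.19 (adjusted P = 0.0458). The annotation places 17 LY6 genes in one stretch of chromosome 15, the 3 LY6 members among them, and 10 were tested. At W12 against D0, 6 of these rose (*Psca*, *Slurp1*, *Slurp2*, *Ly6d*, *Ly6k* and *Ly6a*) and none fell, beside the 17.9% and 25.1% of all tested genes, and 5 of 9 rose without *Psca*, whereas at W2 *Slurp1* and *Slurp2* rose and *Ly6a* and *Ly6c1* fell, so genes of this stretch moved in opposite directions at W2. The W12 calls of *Ly6d* and *Ly6a* in this stretch were lost without D0 replicate 2 and without either W12 library, and the count was not repeated without those libraries. *Ly6e*, which lies between *Ly6k* and *Ly6a*, did not pass at either timepoint.

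Few of the known binding partners of CD34, CD200 and CD24 were measured well enough to test, 4 of 12. The CD200 receptor gene *Cd200r1*, which belongs to myeloid cells, was listed at no more than 0.0199 TPM in any library. *Sele* and *Selp*, which encode the endothelial selectins, were at 47.4 and 122 TPM and at 45.7 and 134 TPM at W12 and at no more than 0.506 TPM before. They are endothelial genes like *Pecam1*, and passed the filter on low values only through W12, so that no test of them is given. *Crkl*, which encodes an adaptor that binds CD34 inside the cell, fell at W12 by 0.96 on the log2 scale (adjusted P = 0.00255).

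Among 25 other surface markers of skin stem cells and their neighbours, 23 were tested. Against D0, 1 rose and 2 fell at W1, 2 rose and 2 fell at W2, 3 rose and 6 fell at W6, and 4 rose and 9 fell at W12, when 17.9% of all tested genes rose and 25.1% fell. The shares of all tested genes were 5.79% up and 4.10% down at W1, 9.06% and 6.64% at W2 and 18.3% and 14.1% at W6. *Procr* is among those counted as risen at W6 and W12, and without it 2 rose at W6 and 3 at W12. Without D0 replicate 2, 1 rose and 2 fell at W1, none and 2 at W2, 2 and 5 at W6 and 3 and 7 at W12, and without the W12 libraries 1 rose and 1 fell at W1, 1 and 2 at W2 and 2 and 6 at W6. The median log2 change of the list at W12 was −0.27. *Procr*, the endothelial protein C receptor and a stem cell marker in several epithelia, was at 1.06 and 0.600 TPM at D0, 5.87 and 11.7 TPM at W6 and 65.5 and 98.8 TPM at W12. Like *Cd34* it passed the filter on low values only through W6 and W12. *Cd34* is a member and its tests are given with and without the filter, while for *Procr* no P value is given. *Procr* belongs to endothelium as well, and the endothelial share of its W12 level was not tested. *Dll1*, a Notch ligand of EpdSCs, fell by 3.01, *Lrig1*, a marker of the upper follicle and epidermis, by 2.28, and *Itga3*, the laminin receptor subunit of basal cells, by 2.14 on the log2 scale at W12 (adjusted P = 7.82e-04, 0.00383 and 5.83e-04). *Lrig1* was higher at W2 by 1.78 on the log2 scale (adjusted P = 0.0278) before it fell, and its call at W2 was lost without D0 replicate 2.

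Neighbouring timepoints were compared for each gene in the order of its means. *Cd34* ran W12, W6, W2, D0 and W1 from high to low, and the differences W12 to W6 and W6 to W2 passed. *Cd200* ran W12, W6, W2, W1 and D0, and no neighbouring pair passed. *Cd44* ran W12, W1, W6, W2 and D0, and only W2 against D0 passed. *Cd24a* ran W12, D0, W6, W1 and W2, and only D0 against W6 passed. *Ly6a* ran W12, D0, W1, W6 and W2, and W12 against D0 and W1 against W6 passed (0.80 ± 0.23, adjusted P = 0.0371, where 22.9% of all tested genes passed). *Ly6d* ran W12, W2, W1, D0 and W6, *Ly6e* W6, W2, W1, W12 and D0, and *Epcam* W6, W2, W12, W1 and D0, and none of their neighbouring pairs passed. Between W1 and W2, where 0.114% of all tested genes passed, no member passed in limma, and 2 (*Cd200* and *Ly6a*) had an unadjusted P under 0.05. From W2 to W6 only *Cd34* passed, where 16.3% of all tested genes did. That call was lost with no filter on low values (adjusted P = 0.0551) and without W2 replicate 1, W2 replicate 2 or W6 replicate 2. From W6 to W12 *Cd34*, *Cd24a*, *Ly6a* and *Ly6d* rose, where 20.2% of all tested genes passed (6.66% up). The calls of *Cd24a* and *Ly6d* were lost with no filter on low values and without either W12 library, and that of *Ly6d* also without W6 replicate 2.

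Over the 10 libraries, *Cd34* and *Cd200* had a Pearson r of 0.89 between their log2(TPM + 1) values, *Cd24a* and *Ly6a* of 0.82, *Cd44* and *Epcam* of 0.68, and *Cd24a* and *Epcam* of −0.55. These are descriptions, as replicates of a timepoint and the 2 W12 libraries are shared by every pair. The genes with the most similar course to *Cd34* were *Prl2c2* (r = 0.99), *Prkg2* and *Gcnt1*, those nearest to *Cd200* were *Rmdn2* (r = 0.96), *Ramp1* and *Morrbid*, and those nearest to *Cd24a* were *Antxr2* (r = 0.98), *Gm49342* and *Tsc22d1*. For *Ly6a* they were *Hagh* (r = 0.95), *Gm15542* and *S100a10*, for *Ly6d* *Rpp25* (r = 0.90), *Kank3* and *E130102H24Rik*, for *Cd44* *Col9a3* (r = 0.96), *Plpp1* and *mt-Cytb*, and for *Epcam* *Cpe* (r = 0.95), *Snx10* and *Qsox1*.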

How the data were processed

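The authors trimmed reads with Skewer, quantified transcripts with Salmon 1.4.0 against a GENCODE index of GRCm38 (M24) extended by the transgene, and summed them to genes with Tximport 1.12.3, per the labels and the study's methods. The deposited values are TPM, which sum to 1000000 in each of the 10 libraries. The depth per library is therefore unknown, and no counting error can be given. The authors' comparison of SOX9+ and SOX9neg placode cells (mean normalized counts, fold changes and P values of DESeq2) was not used here, nor were the 4 placode libraries.

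The 8 genes were taken by symbol. The genes and the lists were chosen with earlier results of these data known. Tests used log2(TPM + 1) of the 13110 genes that averaged 1 TPM or more. A linear model with 1 mean per timepoint was fitted to the 10 libraries in limma 3.58.1 (R 4.3.3), leaving 5 residual degrees of freedom, and eBayes allowed a variance trend. P values were adjusted by Benjamini-Hochberg over all genes tested, and a gene was called at an adjusted P under 0.05. The DESeq2 test of the study needs counts and was not used. The labels call replicates biological.

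All 8 members and the gate genes are named, and of each other pathway list at most the 4 called genes with the largest absolute log2 change at W12 against D0, plus, for each varying member, the 3 tested genes with the highest Pearson r. *Krt14*, *Xist*, *Ddx3y*, *Emcn*, *Cdh5*, *Cd200r1*, *Gm6212* *Krt8*, *Krt18*, *Krt20*, *Atoh1*, *Isl1*, *Krt15*, *Krtdap*, *Dcn*, *Col1a2*, *H2-Aa*, *Cd3e*, *Coro1a* and the chromosome 15 LY6 genes were named after their values were seen. Coordinates and 31-base words come from GENCODE M21 (GRCm38), and promoters from RefSeq, which matched 4 of the 8 genes. Python 3.11.15, numpy 2.4.6, pandas 2.3.3 and matplotlib 3.10.9 were used. The alternatives tried are given with their effect in the closing section.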

Additional observations from a re-analysis of the deposited data

How the results depend on the processing

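With 2 libraries a timepoint and unknown depth, small changes and those of low genes could not be resolved. Of 848 values of the members recomputed under another setting, 720 kept their direction and their side of the threshold, 90 were no longer called, 8 were newly called and 30 changed sign; every change of sign was in a value that had not been called.

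The number of members called at W1, W2, W6 and W12 against D0 was 2, 5, 6 and 6. With all genes above 0 TPM in the test it was 1, 0, 3 and 3, with 0 from W2 to W6 and 2 from W6 to W12. Fitted on 4 libraries, those of the comparison alone, it was 1, 3, 2 and 3. With a minimum absolute log2 change of 1 it was 1 at W1 and 3 at W12, and without the W12 libraries 1 at W1. From W2 to W6, 2 members passed instead of 1 among genes of at least 5 TPM, and 2 after median-ratio scaling. The call of *Epcam* was lost under 7 settings at W2 and 3 each at W6 and W12, those that leave out 1 library aside. The cause was not tested.

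With 1 library left out, the count was 0 to 2 at W1, 0 to 3 at W2, 3 to 6 at W6 and 3 to 5 at W12, 0 to 2 from W2 to W6, 2 to 4 from W6 to W12, and 5 to 7 over all timepoints. The lone library was then taken to vary like the other groups.

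Same-numbered libraries of different timepoints had correlations of −0.129 to 0.182, so the numbers were not taken to pair the samples. With the replicate number as a block, 1 member was called at W1 and 3 at W2. With the D0 numbers crossed in the block, 1 was called at W1.

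Uncalled log2 changes that changed sign are given by setting. After median-ratio scaling, *Epcam* from W6 to W12 was 0.086. After quantile normalization, *Cd34* at W2 was −0.18, *Ly6d* at W6 0.018 and *Ly6e* at W12 −0.10 against D0, and from W2 to W6 *Cd44* was −0.062 and *Ly6e* −0.060. With 1 library left out, values against D0 at W1 ran from −0.34 to 0.043 for *Cd34*, −0.090 to 1.02 for *Cd200*, −0.35 to 0.068 for *Ly6a*, −0.16 to 0.57 for *Ly6d* and −0.017 to 0.34 for *Ly6e*. *Cd34* at W2 ran from −0.12 to 0.26, *Ly6d* at W6 from −0.62 to 0.11, *Ly6e* at W6 from −0.28 to 0.88 and at W12 from −0.087 to 0.27. From W1 to W2, *Cd24a* ran from −0.42 to 0.023 and *Ly6e* from −0.013 to 0.17. From W2 to W6, *Cd44* ran from −0.13 to 0.15, *Cd24a* from −0.44 to 1.48, *Ly6a* from −0.029 to 0.58, *Ly6e* from −0.52 to 0.64 and *Epcam* from −0.41 to 0.38. From W6 to W12, *Ly6e* ran from −0.79 to 0.37 and *Epcam* from −0.48 to 0.31.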
